A study of Mus musculus with 6 samples.

Results

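The miR-23-27-24 genes form a pair of small clusters in the mouse genome, and the values described here are those of the arms that only one of the clusters can make. They are the 10 rows of the deposited table of 1978 known mature miRNAs that belong to either cluster, with miR-24-3p left aside because both loci make it. The Mir23a cluster (Mir23a, Mir27a and Mir24-2) gives mmu-miR-23a-3p, mmu-miR-27a-3p, mmu-miR-23a-5p, mmu-miR-27a-5p and mmu-miR-24-2-5p. The Mir23b cluster (Mir23b, Mir27b and Mir24-1) gives mmu-miR-23b-3p, mmu-miR-27b-3p, mmu-miR-23b-5p, mmu-miR-27b-5p and mmu-miR-24-1-5p. The rule for members uses name and locus and no measured value, although it was set with earlier results of these data known.

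Small RNA was sequenced from c-kit+ cardiac progenitor cells, a population of the heart marked by the stem cell factor receptor c-kit and sorted here with magnetic beads from hearts of wild-type male C57BL/6 mice, 4 to 6 weeks old. There were 3 control libraries (time 0 hours) and 3 hypoxia libraries (12 hours of hypoxic culture). The submitters titled them control and model and marked each as a biological replicate. All cells shared the same strain, genotype and isolation. The labels write hypoxia as the treatment of the controls too and describe RNA of exosomes in the extraction step while the design speaks of cellular RNA, and neither point was settled. The labels do not state the oxygen level, whether the controls were kept in culture for as long, or whether replicates came from separate animals, so time in culture and hypoxia cannot be told apart. The p-values below therefore cover only the spread among the 6 libraries, part of which may be technical.

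A miRNA cluster is copied as one long primary transcript, from which the nuclear enzyme Drosha cuts each hairpin. Dicer then cuts the hairpin to a short duplex, one strand of which, the guide, is loaded into an Argonaute protein and directs it to messenger RNAs, while the other, the passenger, is mostly degraded. In these clusters the 3p arms are the usual guides and the 5p arms the usual passengers. The clusters are known for roles in endothelial cells and angiogenesis, in fat and muscle cells, and as miRNAs that hypoxia can alter in some cell types.

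Sequences from RefSeq (GRCm38.p6) matched 9 of the 10 members by name, all but miR-23b-3p. Those that show how far the arms of the clusters can be told apart are given here, 5′ to 3′, with the seed (bases 2 to 8, the part that pairs with targets) in capitals.
miR-23a-3p: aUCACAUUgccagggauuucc
miR-27a-3p: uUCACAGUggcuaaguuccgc
miR-27b-3p: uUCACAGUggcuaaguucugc
miR-24-2-5p: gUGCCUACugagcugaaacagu
miR-24-1-5p: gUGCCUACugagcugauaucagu
miR-23a-5p: gGGGUUCCuggggaugggauuu
miR-23b-5p: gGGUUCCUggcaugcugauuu

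Both miR-27 guides share a seed, UCACAGU, and differ at 1 of 21 bases, C19U (miR-27a-3p base, position from the 5′ end, miR-27b-3p base). A read that ends before base 19 matches both. The seed of miR-23a-3p, UCACAUU, differs from theirs at 1 of its 7 positions, U7G. The miR-24 5p arms also share a seed, UGCCUAC, and are identical over their first 16 bases. The miR-23 5p arms have different seeds, since miR-23b-5p starts 1 base further along the shared stretch of 10 bases. The miR-27 5p arms differ at 8 of 22 bases, 1 of them (G3A) in the seed. No source used here states how reads that match more than one miRNA were assigned. The division of miR-23-3p, of miR-27-3p and of the miR-24 5p arms between the loci is uncertain to that extent.

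The Mir23a cluster lies on chromosome 8 within 404 bases (84208518 to 84208921, plus strand, GRCm38), with Mir23a at 84208518 to 84208592, Mir27a at 84208672 to 84208758 and Mir24-2 at 84208815 to 84208921. GENCODE places no other gene on that strand over Mir23a and Mir27a, and an exon of the lincRNA Gm26532 overlaps Mir24-2. The Mir23b cluster lies on chromosome 13 within 792 bases (63300484 to 63301275, plus strand), with Mir23b at 63300484 to 63300557, Mir27b at 63300712 to 63300784 and Mir24-1 at 63301208 to 63301275. It sits in the gene 2010111I01Rik, in introns of each of the 4 protein-coding transcripts that span it. Transcripts of that gene marked for nonsense-mediated decay have exons over Mir27b and Mir24-1, and Fancc spans the locus on the opposite strand. Mir3074-1 and Mir3074-2 are annotated on the opposite strand of Mir24-1 and Mir24-2. Rows named for miR-3074 arms held 0 to 53 counts per library, against at least 351 for miR-24-1-5p.

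Known miRNA counts totalled 12285970 to 16975987 per library, so that a count of 0 allowed up to 0.244 CPM in the shallowest one (3 counts, counting error only). Levels are given as CPM, counts relative to the library's total after TMM scaling, which adjusts for differences in composition between libraries. Each column head joins 0 or 1 with one of the letters A, B and C. The 0 was read as 0 hours and the 1 as 12 hours, and each direction rests on that reading. Deviations from the group means correlated at 0.52, 0.43 and 0.28 between same-lettered libraries of the groups and from -0.44 to 0.12 between others. On that ground the letters were taken as pairs in a second fit (the letter block). Deviations cancel out within a group, so the low values between unlike letters are partly arithmetic. The pairing was also chosen on the same data that the block fit then tested. The c-kit transcript is not measured by small RNA. Endothelial miR-126a arms summed to 227197 to 249641 CPM in control and 200661 to 238099 in hypoxia (2 of 2 tested), and 4 of 4 fibroblast and smooth muscle markers to 23794 to 53322 and 23624 to 45240. Cardiomyocyte markers (3 of 5 tested, without miR-208a-3p and miR-208b-3p) summed to 76.1 to 170 and 102 to 172 CPM. All 3 had higher means in hypoxia, with log2 fold changes of 0.27 (miR-1a-3p), 0.56 (miR-133a-3p) and 0.52 (miR-499-5p), and none passed edgeR without or with the letter block (lowest adjusted p = 0.098, miR-133a-3p with the block). Their part in the results was not tested. Summed levels were, for blood markers (4 of 6), 14.2 to 26.7 and 11.4 to 30.5 CPM and, for epithelial markers (3 of 4), 4.21 to 8.85 and 5.46 to 7.18.

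All 10 members passed the filter on low counts, among 619 miRNAs tested. They spanned more than 3 orders of magnitude, from miR-27b-3p with a mean of 15970 CPM over the 6 libraries, the 10th most abundant miRNA tested, to miR-23a-5p with 3.68 CPM, ranked 450. The order was miR-27b-3p, miR-27a-3p (5299 CPM), miR-23b-3p (2258), miR-23a-3p (2126), miR-24-2-5p (1299), miR-27a-5p (273), miR-27b-5p (49.1), miR-24-1-5p (34.7), miR-23b-5p (9.76) and miR-23a-5p. Each member exceeded the next in 6 of 6 libraries, except that miR-23b-3p exceeded miR-23a-3p in 4 of 6, so this pair did not differ beyond its spread. A small RNA read covers a whole miRNA and was not scaled by length, and how efficiently each sequence was captured was not measured.

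**Figure D1:**
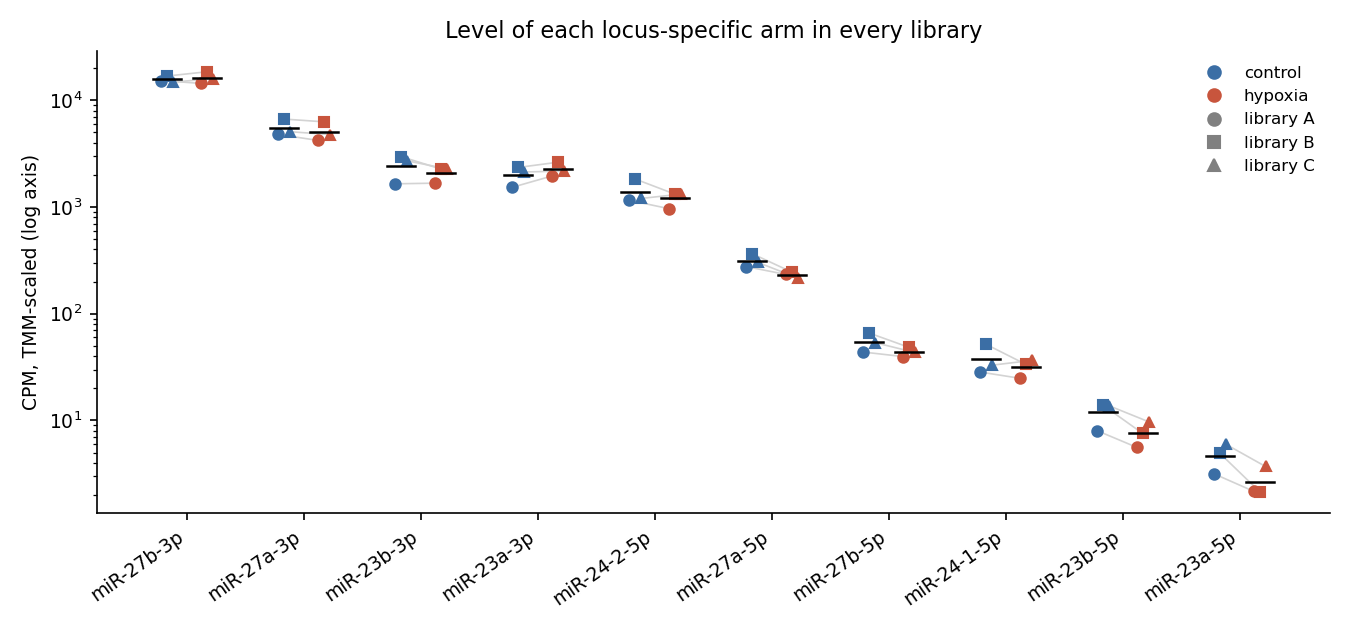
Level of each of the 10 arms in CPM (log axis) in the 3 control and 3 hypoxia libraries, with the letter as the symbol, grey lines between same-lettered libraries and a black bar for the group mean. The 4 guides lie at 1530 CPM or more in every library, and miR-24-2-5p stands far above the other 5p arms.

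In hypoxia all 6 of the 5p arms had lower means than in control, by the most for the rare arms of miR-23, while 2 of the 4 guides had lower and 2 had higher means. The guide miR-23b-3p differed about as much (-0.24 on the log2 scale) as the miR-24 5p arms (-0.22 and -0.25), and without control B those 5p arms were at 0.01 and 0.02. No member passed the test between the groups. edgeR's quasi-likelihood test with adjustment over all 619 miRNAs called 0 of the 10 members, as it called 0% of all miRNAs, and with the letter block it again called 0 of 10, where 2.26% of all were called. At an unadjusted p under 0.05 and lower in hypoxia there were 2 members, miR-23a-5p and miR-27a-5p, against 2.75% of all miRNAs, and 4 with the letter block, against 9.69%. With scaling by library size or upper quartiles none of the 10 reached an unadjusted p under 0.05 without the block. Leaving out 1 library gave 0 to 3 such members in either direction without the block, against 25 to 73 of the 628 to 648 miRNAs tested. With the block, leaving out pair A, B or C gave 5, 2 and 3 members. Among all miRNAs it gave 135 of 625, 101 of 627 and 60 of 628. The 4 members with the letter block on all libraries were the 5p arms of miR-23a, miR-27a, miR-23b and miR-27b. The 5 without pair A were these 4 and the guide miR-23b-3p. The 2 without pair B were miR-27a-5p and miR-23b-5p. The 3 without pair C were miR-23a-5p, miR-23b-5p and miR-24-2-5p. DESeq2 with the letter block, added after the data were seen, called 1 member, miR-27a-5p (DESeq2 adjusted p = 0.015, lower in 3 of 3 pairs). It called 36 of the 528 miRNAs to which it gave an adjusted p, or 6.82%. Over its 17 alternatives the adjusted p of miR-27a-5p ran from 0.015 to 0.999. In a bulk sample, fewer cells of a type and less RNA per cell cannot be told apart.

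The median log2 fold change was -0.38 over the 6 5p arms and -0.03 over the 4 3p arms, beside 0.01 over all 619 miRNAs. By locus it was -0.22 for the 5 arms of the Mir23a cluster and -0.25 for the 5 of the Mir23b cluster. Of the 10 members 8 lay below 0 and 2 above (5 and 5 without control B, with a median of -0.05 in place of -0.25), and of all tested miRNAs 302 lay below and 317 above. These medians lay further apart between the arms than between the loci.

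Among the guides, miR-27b-3p, known as a repressor of the adipogenic factor Pparg, stood at 15312, 16877 and 14810 CPM in control A, B and C and at 14380, 18511 and 15933 CPM in hypoxia A, B and C. The groups overlapped, with hypoxia A lowest and hypoxia B highest, and the log2 fold change was 0.05 (SE 0.14, edgeR adjusted p = 0.99). Its counterpart miR-27a-3p gave 4784, 6669 and 5077 CPM in control and 4206, 6282 and 4774 in hypoxia, with library B highest in both groups. Its log2 fold change was -0.12 (SE 0.20, edgeR adjusted p = 0.99).

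The guide miR-23b-3p, a miRNA known in endothelial and muscle cells, was at 1649, 2968 and 2714 CPM without hypoxia and at 1673, 2266 and 2278 CPM with it. Both A libraries were low, and the hypoxia values of B and C lay below their control values. The log2 fold change was -0.24 (SE 0.24, edgeR adjusted p = 0.97). miR-23a-3p went the other way in value, from 1530, 2347 and 2128 CPM to 1953, 2628 and 2173 CPM, higher in hypoxia within each letter but with overlapping groups. Its log2 fold change was 0.17 (SE 0.20, edgeR adjusted p = 0.99). It turned to -0.01 without control A, which held its lowest value.

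Among the passengers, miR-27a-5p was the one member whose groups did not overlap, at 276, 366 and 302 CPM in control and 233, 245 and 216 in hypoxia. Groups with all hypoxia libraries lower made up 5.49% of all miRNAs tested. Every hypoxia library lay below every control library, and the means were 315 ± 45.9 and 232 ± 14.5 CPM (SD, n = 3 each). The log2 fold change was -0.44 (SE 0.18, edgeR adjusted p = 0.72), and -0.44 (SE 0.12, edgeR adjusted p = 0.071) with the letter block.

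miR-23a-5p, the rarest member, was read 39, 64 and 94 times in control and 36, 35 and 51 times in hypoxia, or 3.16, 4.92 and 5.98 CPM against 2.16, 2.15 and 3.70. Control A, the shallowest library, overlapped with the hypoxia libraries. Exact Poisson 95% intervals, which cover counting error only, were 27.7 to 53.3 counts for control A and 24.4 to 48.7 for hypoxia B. These counts are not scaled for depth, which was 12285970 known miRNA counts in control A and 16975987 in hypoxia B. The log2 fold change was -0.82 (SE 0.36, edgeR adjusted p = 0.72). With the letter block it was -0.81 (SE 0.25, edgeR adjusted p = 0.11).

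The matching arm miR-23b-5p had 8.01, 13.9 and 13.8 CPM as control values and 5.59, 7.54 and 9.72 as hypoxia values, lower within each letter, with control A inside the hypoxia range. Its log2 fold change was -0.65 (SE 0.30, edgeR adjusted p = 0.73), and -0.64 (SE 0.16, edgeR adjusted p = 0.061) with the letter block. miR-27b-5p was at 43.7, 66.0 and 53.6 CPM in control and 39.7, 48.5 and 43.4 in hypoxia. Its difference was smaller, with -0.31 on the log2 scale (SE 0.22, edgeR adjusted p = 0.90), again lower within each letter.

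The miR-24 5p arms did not share that pattern within the letters. miR-24-2-5p gave 1155, 1830 and 1202 CPM in control and 965, 1320 and 1320 in hypoxia, and miR-24-1-5p gave 28.4, 51.7 and 32.9 CPM and 24.8, 33.6 and 36.5 CPM. Both were lower in hypoxia in A and B and higher in C, with control B far above the other controls. The log2 fold changes were -0.22 (SE 0.23) and -0.25 (SE 0.28), each with an edgeR adjusted p of 0.97, and without control B they became 0.01 and 0.02. miR-24-3p, the guide that both loci make, averaged 12361 ± 2064 CPM in the controls against 11365 ± 1685 after hypoxia (SD, n = 3 each). Its log2 fold change was -0.12 (SE 0.17, edgeR adjusted p = 0.99).

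**Figure D2:**
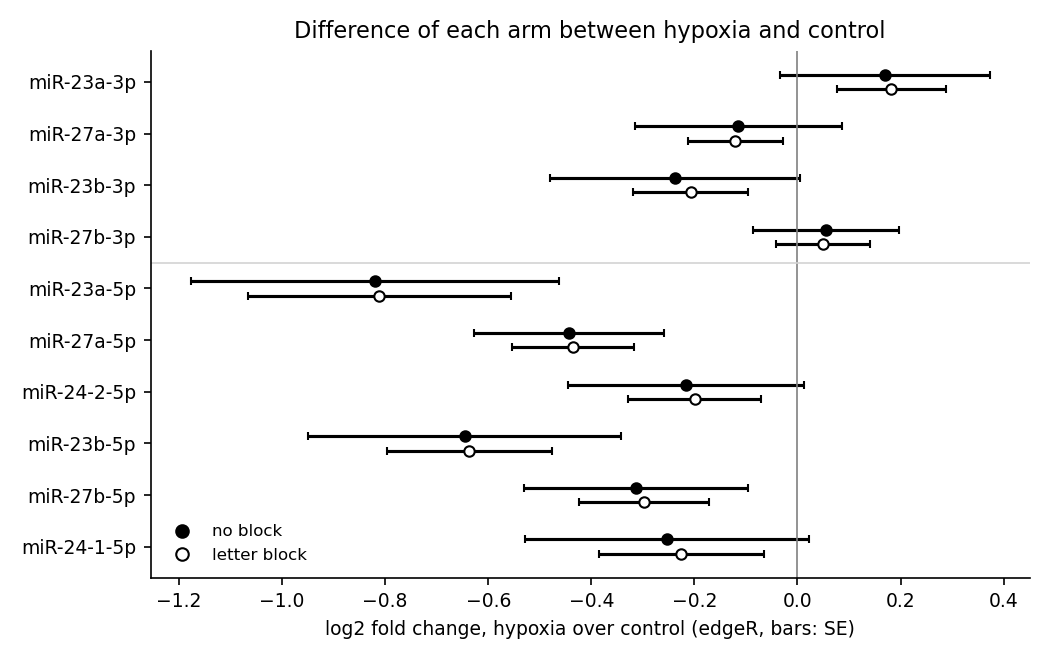
Log2 fold change of each arm, hypoxia over control, from edgeR without a block (filled) and with the letter block (open); bars are SE and the grey line parts the 3p arms (top) from the 5p arms. The 3p arms scatter around 0 (median -0.03) and all 6 5p arms lie below it (median -0.38).

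Guide and passenger arms of one hairpin come from the same precursor. As with any ratio of counts within a library, theirs does not depend on how the library was scaled. The log2 ratio of 5p to 3p counts (0.5 added to each) was lower in hypoxia for all 4 hairpins with both arms among the members. This held within each of the 3 letters, though in pair A by only -0.06 for miR-27a and -0.05 for miR-27b. How many hairpins outside the clusters were lower within each letter was not counted. For miR-23a the log2 ratio was -8.90, -8.89 and -8.47 in control and -9.80, -10.24 and -9.18 in hypoxia, a difference of -0.99. The passenger thus made up 0.232% ± 0.0422 of miR-23a counts in the controls against 0.121% ± 0.0450 after hypoxia (SD, n = 3 each).

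For miR-23b the log2 ratios were -7.68, -7.73 and -7.62 in control and -8.22, -8.22 and -7.87 in hypoxia, a difference of -0.43 without overlap. Those of miR-27b were -8.45, -8.00 and -8.11 in control and -8.50, -8.58 and -8.52 in hypoxia, a difference of -0.35, also without overlap, though control A and hypoxia A were close. For miR-27a, whose passenger is far more abundant (5.43% ± 0.213 of miR-27a counts in the controls against 4.45% ± 0.754 after hypoxia, SD, n = 3 each), the ratios were -4.11, -4.19 and -4.07 in control and -4.17, -4.68 and -4.46 in hypoxia. Here the difference was -0.31, and hypoxia A lay inside the control range. The 5p arms of miR-24 set against miR-24-3p gave differences of -0.08 for miR-24-2-5p and -0.11 for miR-24-1-5p, with overlapping groups.

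The miR-23a, miR-23b and miR-27b ratios reached p = 0.1 each, the smallest that a two-sided exact permutation test of 3 libraries against 3 can give, and miR-27a p = 0.2. Adjusted over the 14 ratios computed in all, the lowest was 0.35. Within the letters, flipping the signs of the 3 pair differences (exact permutation test) gave p = 0.25 for each of the 4, again the smallest possible.

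**Figure D3:**
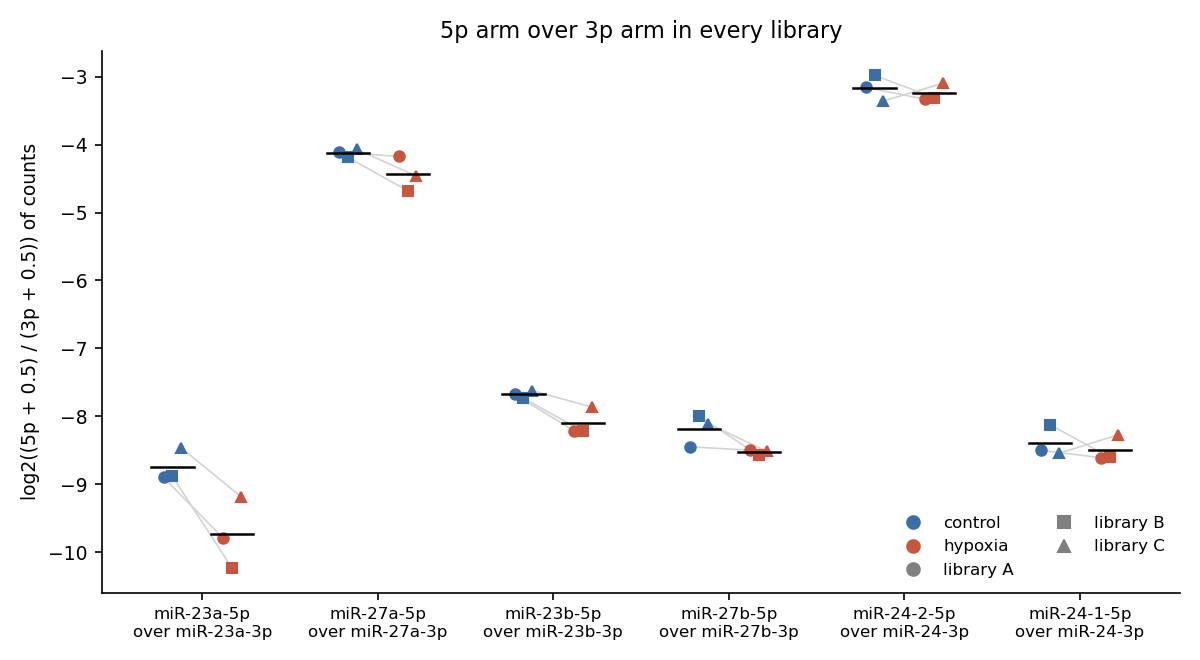
Log2 ratio of the 5p to the 3p arm in every library (0.5 counts added to each arm), control and hypoxia side by side, with grey lines between same-lettered libraries and a black bar for the group mean. For miR-23a, miR-23b and miR-27b all hypoxia libraries lie below all controls, while the miR-24 5p arms over miR-24-3p overlap.

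The same ratio could be taken for 189 hairpins with both arms tested, of which 101 had a lower value in hypoxia, with a median difference of -0.02 against -0.39 for the 4 member hairpins. All hypoxia libraries lay below all controls for 3 of the 4, against 10.1% of the 189. A limma fit over all 189 hairpins, added after the data were seen, called 0 of the 4 without the block, where it called 3.7% of hairpins, and 1 of the 4 with it, where it called 6.35%. The one called was miR-23a (-0.99, SE 0.30, limma adjusted p = 0.030, lower in 3 of 3 pairs). That call was lost without a trend of the variance on the level (limma adjusted p = 0.16) and without pair A, B or C (limma adjusted p = 0.057, 0.65 and 0.64). The miR-23a ratio rests on the 35 to 94 counts of miR-23a-5p per library.

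**Figure D4:**
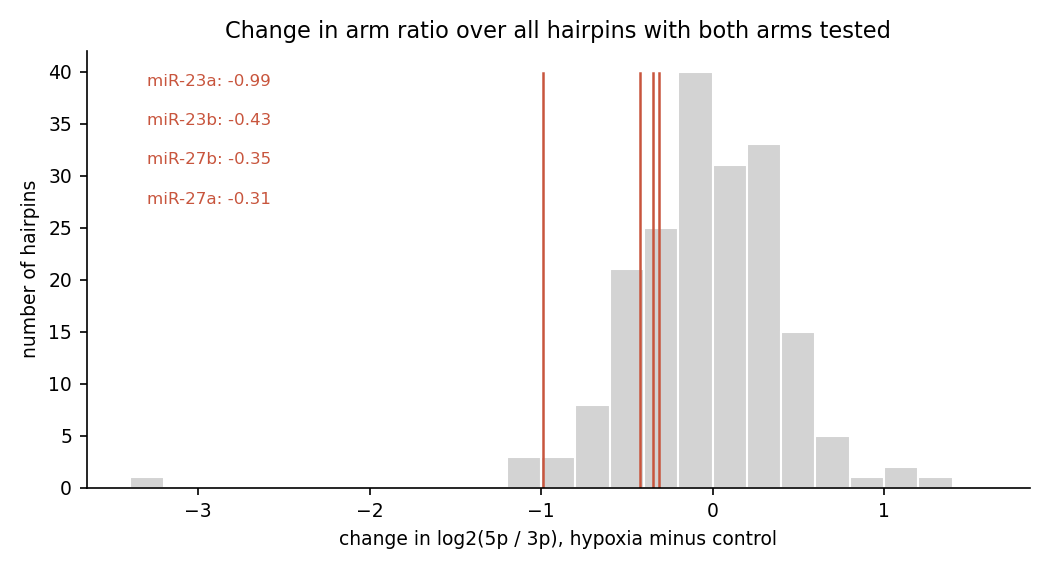
Number of hairpins by the change in log2(5p/3p), hypoxia minus control, for the 189 hairpins with both arms tested (grey), with the 4 member hairpins as red lines. The 4 lie between -0.99 and -0.31, on the lower side of a distribution with its median at -0.02.

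Which locus had more counts depended on the arm. Counts of different sequences also depend on capture and on read assignment, which are not known here. Summed over their 5 members, the Mir23b cluster had 2.05 times the counts of the Mir23a cluster (1.78 to 2.20 in single libraries). Its share of known miRNA counts was 1.78% ± 0.0572 against 0.896% ± 0.113 in the controls and 1.88% ± 0.145 against 0.893% ± 0.111 after hypoxia (SD, n = 3 each). Most of the Mir23b sum was miR-27b-3p (mean 15970 CPM, next miR-23b-3p with 2258), so the sums largely repeat the miR-27-3p ratio. The guide miR-24-3p is in neither sum. Among the most abundant guides, miR-27b-3p had 3.04 times the counts of miR-27a-3p (2.53 to 3.42). The reverse held for the 5p arms of the same hairpins, where miR-27a-5p had 5.55 times the counts of miR-27b-5p (4.98 to 6.32). The miR-24 5p arms, which share a seed, were the most uneven, with 37.7 times as many counts of miR-24-2-5p as of miR-24-1-5p (35.4 to 40.6). miR-24-2-5p thus made up 97.3% to 97.6% of their counts in every library.

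miR-23b-5p had 2.69 times the counts of miR-23a-5p (2.29 to 3.48). Each of these 5 inequalities had the same direction in 6 of 6 libraries (exact two-sided sign-flip permutation test, p = 0.031, adjusted p = 0.0375 over 6 comparisons). That p is the smallest that 6 libraries can give, and any ratio with 1 direction throughout reaches it, whatever its size. The test counts same-lettered libraries as independent, and the cluster sums are not independent of the miR-27-3p ratio. The miR-23-3p guides were the exception, at a log2 ratio of -0.07 over the 6 libraries (exact sign-flip permutation test, adjusted p = 0.53).

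Control and hypoxia libraries overlapped in 5 of these 6 locus ratios. The log2 ratio of miR-24-2-5p to miR-24-1-5p was 5.34, 5.14 and 5.19 in control and 5.28, 5.30 and 5.17 in hypoxia, a difference of 0.02. Those of miR-27a-3p to miR-27b-3p were -1.68, -1.34 and -1.54 in control and -1.77, -1.56 and -1.74 in hypoxia, a difference of -0.17. The corresponding differences were -0.17 for miR-23-5p, -0.14 for miR-27-5p and -0.08 for the cluster sums, each with overlapping groups. Within the letters, the ratios of miR-27-3p (-0.10, -0.22 and -0.19 in A, B and C), miR-27-5p (-0.11, -0.13 and -0.18) and miR-23-5p (-0.02, -0.31 and -0.19) were lower in hypoxia in 3 of 3 pairs. For each the exact sign-flip permutation p was 0.25, the smallest possible.

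The ratio of miR-23a-3p to miR-23b-3p did separate the groups, at -0.11, -0.34 and -0.35 in control and 0.22, 0.21 and -0.07 in hypoxia. The difference was 0.39, with 0.33 in pair A, 0.55 in B and 0.28 in C. miR-23a-3p thus made up 45.4% ± 2.35 of both guides in the controls against 52.1% ± 2.86 after hypoxia (SD, n = 3 each). It reached the smallest possible exact permutation p of 0.1, or 0.35 adjusted over the 14 ratios. It was 1 of 4 among those 14 whose groups did not overlap, where 12.2% of the ratios between any pair of tested miRNAs did not.

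**Figure D5:**
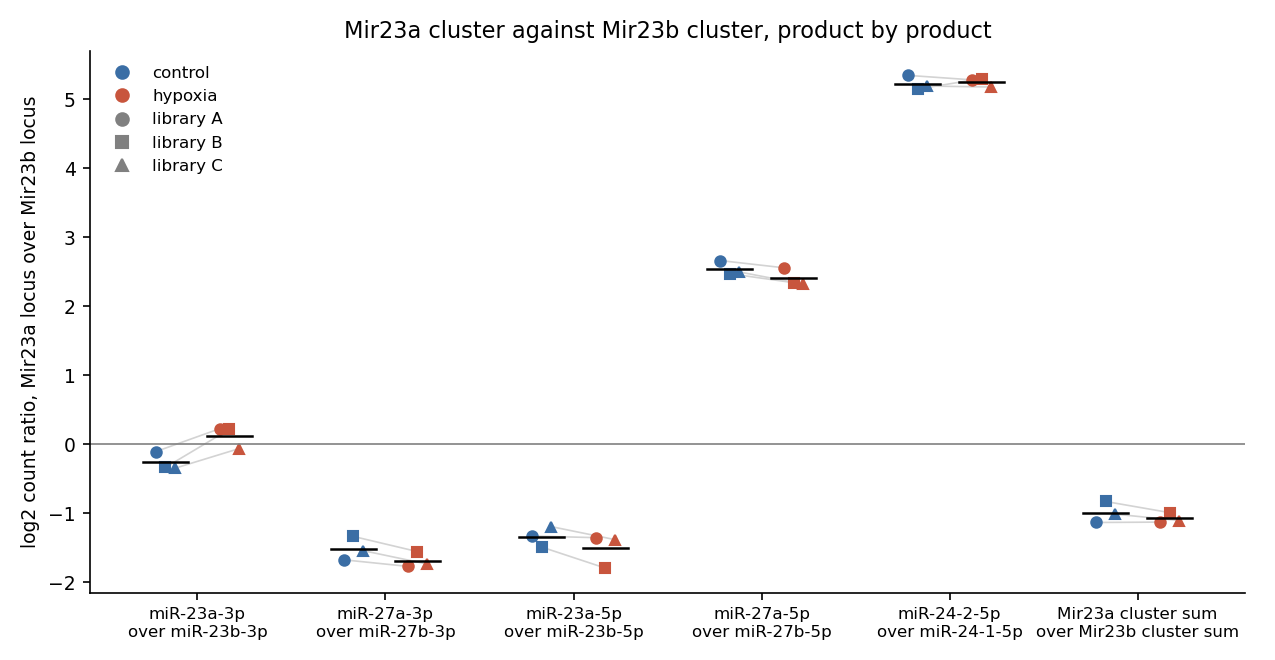
Log2 ratio of counts from the Mir23a locus to counts from the Mir23b locus for each product and for the sums over 5 members, in every library, with a black bar for the group mean and the grey line at equal counts. The miR-24 5p arms lie above 5, miR-27-3p below -1.3, and only miR-23-3p, near 0, has all hypoxia libraries above all controls.

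Within a cluster the guides of one transcript were unequal. miR-27a-3p had 2.49 times the counts of miR-23a-3p (2.15 to 3.13 in single libraries) and miR-27b-3p 7.22 times those of miR-23b-3p (5.46 to 9.28). Hypoxia minus control, the log2 ratio of miR-23-3p to miR-27-3p differed by 0.30 in the Mir23a cluster and by -0.26 in the Mir23b cluster, with overlapping groups in both (exact permutation p = 0.2 and 0.4).

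Other miRNAs were ranked by how closely their log2 CPM followed the mean profile of each cluster over the 6 libraries, among 354 with a mean of at least 10 CPM. For the Mir23a cluster they were miR-195a-3p (Pearson's r = 0.98), miR-423-5p (0.97) and miR-125a-5p (0.97), and for the Mir23b cluster miR-125a-5p (0.99), miR-139-5p (0.96) and miR-423-5p (0.96). None of these passed edgeR, with log2 fold changes from -0.57 (miR-195a-3p) to -0.14 (miR-139-5p). These values describe 6 libraries that share their scaling, and the highest of many correlations is high by selection.

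Among 18 miRNAs of angiogenesis and endothelial function, 12 had positive and 6 negative log2 fold changes (median 0.14, beside 317 positive and 302 negative and a median of 0.01 over all tested). None passed edgeR without the block. With it 2 of the 18 rose, where 2.26% of all tested were called in either direction: miR-210-3p, the miRNA best known as induced by hypoxia (1.19, SE 0.20, edgeR adjusted p = 0.024), and miR-503-5p (1.00, SE 0.12, edgeR adjusted p = 0.0072). With pair A or pair C left out the block fit called none of all miRNAs. The most abundant were miR-126a-3p (-0.09, SE 0.12), miR-126a-5p (0.28, SE 0.16) and miR-221-3p (-0.03, SE 0.17). A list of 18 miRNAs described as regulated by hypoxia had 13 above and 5 below 0 (median 0.09). None passed without the block, and only miR-210-3p, which is on both lists, rose with it. Its most abundant were miR-21a-5p (-0.12, SE 0.14), miR-26a-5p (-0.07, SE 0.13) and miR-24-3p. miR-128-3p, whose seed overlaps that of miR-27-3p by a shift of the register, gave -0.10 and did not pass.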

How the data were processed

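The authors deposited a table of whole-number read counts per known mature miRNA, with 1 column per library. The build mm10 and the programs DESeq2 and bcl2fastq 2.0 are named in the submitters' processing notes, without their roles. The aligner, counting program and miRNA annotation release were not given in the sources used here. A table of predicted miRNAs without sequences was not used. Members and lists were chosen with earlier results of these data known.

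Counts were fitted by edgeR 4.0.16 in R 4.3.3 (filterByExpr, TMM, quasi-likelihood test, Benjamini-Hochberg adjustment over 619 miRNAs at 0.05). Each SE was taken as the size of the log2 fold change over the root of its F statistic. The pairing of libraries comes from the column letters and the correlations given in the report, not from the labels. Ratios and shares, with 0.5 counts added to each arm of a ratio, were tested by exact two-sided permutation. DESeq2 1.42.0 and limma 3.58.1 served as alternatives, beside other scalings, no filter and leaving out each library. The scripts were tested on simulated data. All 10 members and miR-24-3p were named, and by a fixed rule the 3 miRNAs most like each cluster and the 3 most abundant of each list. miR-210-3p and miR-503-5p were named as well, after their values were seen.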

Additional observations from a re-analysis of the deposited data

How the results depend on the processing

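Over 17 alternative settings the 5p arms of miR-23a, miR-27a, miR-23b and miR-27b and the guide miR-23b-3p lay below 0 in each. The other 5 members turned sign at least once. Leaving out 1 library at a time, miR-23a-3p ran from -0.012 (without control A) to 0.28, miR-27a-3p from -0.32 to 0.025 (without control B; 0.00061 without hypoxia A), miR-24-2-5p from -0.36 to 0.0076 and miR-24-1-5p from -0.44 to 0.023 (both highest without control B), and miR-27b-3p from -0.074 (without hypoxia B) to 0.13. With the letter block (replicate block) and without pair B, miR-27b-3p was at -0.020. The number of known miRNAs called, 0 by edgeR (42 at an unadjusted p under 0.05), was 4 without the filter, 1 with DESeq2, 14 with the replicate block, 23 with the block without pair B, 0 with it without pair A or C, and 36 with DESeq2 and the block, the single setting that called a member (1). The cause of these differences was not tested.

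The 4 arm ratios of miR-23 and miR-27 kept their sign in 16 of 16 alternatives. Among these, the replicate block and the limma fits on all libraries return the main difference itself, so their sign could not change. The miR-23a ratio (-0.99) passed in limma with the replicate block only. With 1 library left out, the change of miR-24-2-5p over miR-24-3p ran from -0.18 to 0.012, of miR-24-1-5p over miR-24-3p from -0.22 to 0.028 and of miR-24-2-5p over miR-24-1-5p from -0.016 to 0.083. The share of all 10 members changed by -0.018 to 0.23 percentage points and that of the Mir23a cluster by -0.061 to 0.052. Levels between the loci kept their direction, at a log2 ratio of -1.66 to -1.57 for miR-27-3p, -1.47 to -1.35 for miR-23-5p, 2.43 to 2.50 for miR-27-5p, 5.22 to 5.26 for the miR-24 5p arms and -1.08 to -1.02 for the cluster sums, though 5 libraries cannot give an exact p below 0.0625. The exact tests of 3 against 3 libraries cannot pass 0.05, so they say nothing about stability.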
